A study of Mus musculus with 4 samples.

Results

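Open chromatin was examined at 8 genes linked to the feedback of glucocorticoid and thyroid hormones on the paraventricular nucleus of the hypothalamus (PVH). They are Nr3c1, Nr3c2, Thra, Thrb, Fkbp5, Tsc22d3, Dio2 and Crhr1. The genes were listed by function, and every ATAC-seq peak overlapping the gene body or the 50 kb to each side was taken. Overlapping peaks (1 bp or more) were merged into regions over the 4 libraries, and 69 of the 67299 regions lay at these genes. ATAC-seq reads open chromatin by letting a transposase insert adapters where DNA is accessible. All mice were 12 weeks old and of the genotype Otp fl/fl; Ai14, in which Cre recombinase deletes the homeodomain factor Otp and switches on a red reporter. AAV-GFP, the control, and AAV-Cre were each represented by 2 libraries, taken 4 weeks after injection into adults. The study asked with it whether chromatin near the targets of Otp becomes less accessible once Otp is lost. The controls carry the same floxed alleles, the promoter of the virus is not named, and nuclei came from dissected PVH with no sort of infected cells stated. The labels do not tie the libraries of a group to different animals, and their spread may be technical.

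The PVH holds the neurons that start the stress axis, through corticotropin-releasing hormone, and the thyroid axis, through thyrotropin-releasing hormone. The end hormones of both axes return to the PVH and restrain them. Cortisol or corticosterone does so through the glucocorticoid and mineralocorticoid receptors, and thyroid hormone through its nuclear receptors after local conversion of the prohormone by a deiodinase. The receptors are ligand-dependent transcription factors, so the same cells read the hormone at the chromatin of its targets.

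The libraries differed in the length of their peak lists, and AAV-GFP replicate 1 stood apart. It held 57682 peaks, against 34100 in AAV-GFP replicate 2, 23384 in AAV-Cre replicate 1 and 26612 in AAV-Cre replicate 2. Near the 8 genes these lists held 62, 42, 25 and 26 peaks in the same order, or 1.07, 1.23, 1.07 and 0.977 per 1000 peaks of the list. The rate overlapped between the groups, at 1.15 ± 0.113 (SD, n = 2) in AAV-GFP and 1.02 ± 0.0658 (SD, n = 2) in AAV-Cre, with an exact two-sided permutation p of 0.667. The smallest p that 2 against 2 libraries allow is 0.333. Fold enrichment, used throughout, is the authors' value for each peak over its local background and is read within a list. A list percentile ranks a peak in its own list by −log10 p, with 0 the strongest and 100 the weakest. The start of Otp itself had folds of 3.73 and 4.22 in AAV-GFP, no peak in AAV-Cre replicate 1 and 5.52 in AAV-Cre replicate 2, which is no check of the deletion because the floxed stretch is not given. Of 8 PVH markers, Pou3f2 and Mc4r had a peak at a start in all 4 libraries, Sim1, Otp and Crh in 1 to 3, and Avp, Oxt and Trh in none. Mc4r and Crh, like Snap25 and Mbp below, had no oriented start, so both gene ends were read and a peak may lie at either. Of 4 neuronal markers, Snap25 had a start peak in all 4 libraries, Gad1 in 3 and Rbfox3 in none. The vesicular glutamate transporter Slc17a6 had one in the AAV-GFP libraries alone (4.95 and 5.96), and its part in the results below was not tested. All 4 microglial and all 3 endothelial markers had no start peak in any library, a state shared by 40.9% of protein-coding genes. Agrp and Foxj1, markers of a neighbouring nucleus and of ependyma read at both gene ends, had one in all 4. Starts of other genes near these ends were not checked, so the peaks cannot be given to Agrp or Foxj1 alone. Agrp folds were 10.4 and 10.9 in AAV-GFP and 9.15 and 8.79 in AAV-Cre. Six3 of the neighbouring nuclei and Mbp of oligodendrocytes had one in 3 libraries, and Olig2 in 1. Pomc, Nr5a1, Mog, Pdgfra, Rarres2 and Ccdc153 had none.

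The annotated starts of these genes were open in all 4 libraries at Fkbp5, Nr3c2 and Thrb, in 3 at Tsc22d3 and Crhr1, and in none at Dio2. A start peak is one within 1 kb of an annotated start, or of either gene end where no oriented start was used. For Nr3c1 and Thra no oriented start was used here, and both ends of the gene were taken instead. On that rule Thra had a peak at its lower end in 2 libraries and Nr3c1 at neither end in any. A start inside the gene is missed by that rule, so it does not show the starts of Nr3c1 to be closed. The 3 of 8 genes with a start peak in all 4 libraries compare with 42.9% of 21887 protein-coding genes. None of the 8 had a start peak in both AAV-GFP libraries alone, a pattern seen at 3.05% of protein-coding genes.

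**Figure D1:**
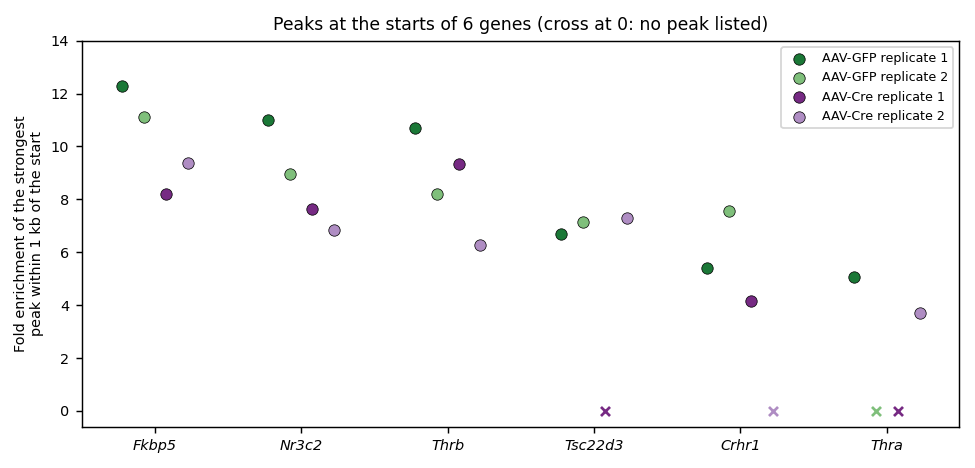
Fold enrichment (vertical axis) of the strongest peak within 1 kb of the start of 6 genes, 1 point per library, with a cross at 0 where no peak is listed. Fkbp5, Nr3c2 and Thrb have points from all 4 libraries between 6.28 and 12.3, while Tsc22d3 lacks AAV-Cre replicate 1 and Crhr1 lacks AAV-Cre replicate 2; for Thra the lower gene end is shown.

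RefSeq (GRCm38.p6) gave 9 annotated starts for 6 of the genes, and the 250 bases before 5 of them follow, read 5′ to 3′ toward the gene. They set starts with a peak beside starts without one. Capitals mark matches to the hormone receptor, CRE or homeodomain elements searched, and a sequence without capitals holds none.
Fkbp5, peak in all 4 libraries, chr17:28486150-28486399, minus strand: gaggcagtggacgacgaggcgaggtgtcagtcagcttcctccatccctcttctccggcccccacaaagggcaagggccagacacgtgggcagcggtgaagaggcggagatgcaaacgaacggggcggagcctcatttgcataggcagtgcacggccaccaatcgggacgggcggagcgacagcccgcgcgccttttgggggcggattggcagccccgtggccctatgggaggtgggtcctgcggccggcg
Thrb distal start, peak in all 4 libraries, chr14:17660710-17660959, plus strand: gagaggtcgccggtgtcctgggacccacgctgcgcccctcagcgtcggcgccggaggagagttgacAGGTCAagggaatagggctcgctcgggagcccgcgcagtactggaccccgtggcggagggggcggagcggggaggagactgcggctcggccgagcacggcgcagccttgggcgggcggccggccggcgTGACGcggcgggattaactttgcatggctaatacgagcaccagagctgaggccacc
Tsc22d3 lower start, peak in 3 libraries, chrX:140542669-140542918, minus strand: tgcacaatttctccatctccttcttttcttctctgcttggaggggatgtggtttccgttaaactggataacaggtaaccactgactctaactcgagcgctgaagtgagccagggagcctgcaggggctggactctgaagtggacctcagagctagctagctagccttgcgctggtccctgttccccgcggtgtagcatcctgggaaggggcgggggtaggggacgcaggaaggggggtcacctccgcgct
Thrb internal start, no peak, chr14:17981394-17981643, plus strand: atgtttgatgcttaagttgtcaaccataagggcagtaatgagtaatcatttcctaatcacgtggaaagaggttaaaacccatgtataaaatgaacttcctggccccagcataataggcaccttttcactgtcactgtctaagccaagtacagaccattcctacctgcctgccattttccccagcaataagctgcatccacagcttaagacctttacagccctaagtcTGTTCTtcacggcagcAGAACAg
Dio2, no peak, chr12:90739039-90739288, minus strand: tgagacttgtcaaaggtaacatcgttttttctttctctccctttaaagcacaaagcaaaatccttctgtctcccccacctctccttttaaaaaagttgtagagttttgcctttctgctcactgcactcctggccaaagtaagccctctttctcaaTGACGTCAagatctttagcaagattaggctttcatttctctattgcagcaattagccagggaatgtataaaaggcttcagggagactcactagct

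The starts of Fkbp5 and the distal start of Thrb are rich in CG dinucleotides, with 23 and 30 in 250 bases, and the internal start of Thrb and that of Dio2 hold 2 each. Nr3c2 has 17, Crhr1 25 and the open Tsc22d3 start 10. Of the other Tsc22d3 starts, neither of which had a peak within 1 kb, one holds 2 and one 12. The start with 12 had a region centred 1270 bp away, outside that window, in AAV-GFP replicate 1 alone (5.13). Every one of the 5 starts with a peak in at least 3 libraries holds 10 or more, and of the 4 starts with none, 3 hold 2 and 1 holds 12. Over 21263 starts of protein-coding genes the same relation was seen, with a peak in all 4 libraries at 4.05% of starts with 0 to 3 CG dinucleotides, 31.3% with 4 to 10, 68.0% with 11 to 19 and 74.4% with 20 to 56. No peak in any library was the case at 88.6% of starts with 0 to 3 and at 12.1% of those with 11 to 19, the class of the closed Tsc22d3 start with 12. These are descriptions of composition, across genes that are not independent replicates.

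**Figure D2:**
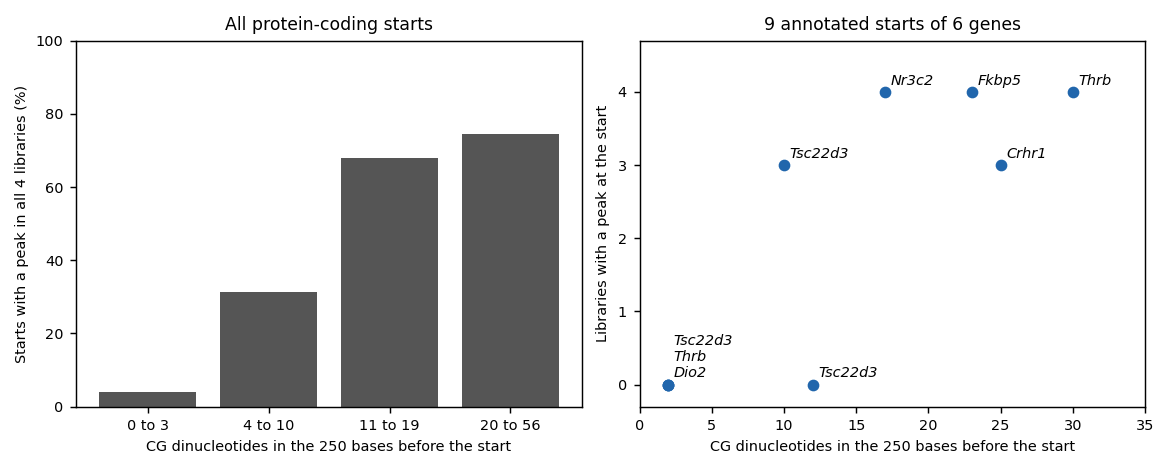
Left, share of all protein-coding starts with a peak in all 4 libraries (vertical axis, percent) by the number of CG dinucleotides in the 250 bases before the start; right, number of libraries with a peak (vertical axis) against that number for the 9 annotated starts of 6 genes. The 5 starts with a peak in 3 or 4 libraries hold 10 to 30 CG dinucleotides, and 3 of the 4 without a peak hold 2.

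Hormone response elements were searched in these 250 bases. The full glucocorticoid response element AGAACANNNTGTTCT and the thyroid element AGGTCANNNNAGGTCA, searched on both strands, matched none of the 9 starts, and matched 0.00941% and 0% of all 21263. With elements this rare, the lack of a match among 9 starts says nothing particular about these genes. The single glucocorticoid element AGAACA matched 2 of the 9, against 13.7% of all starts. They were the internal Thrb start, where it lies on both strands 7 and 23 bases before the start, and the Tsc22d3 start with 12 CG dinucleotides. The single thyroid element AGGTCA matched the distal Thrb start alone, against 12.8% of all starts. The CRE core TGACG, through which cyclic AMP acts, matched 3 of the 9, against 20.2%. At Dio2 it matched on both strands, 95 and 92 bases before the start, which spells the full element TGACGTCA, present at 1.92% of all starts. The full element was searched after that match was seen. The homeodomain core TAATTA, the kind of site Otp can bind, matched none of the 9, against 4.31%.

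Fkbp5 encodes FKBP51, a co-chaperone that lowers the affinity of the glucocorticoid receptor for its ligand and is itself induced by glucocorticoids. The gene lies on chromosome 17 from 28398753 to 28486149, and its start region at 28486014 to 28486472 was the most enriched of the 8 genes' start peaks in every library but AAV-Cre replicate 1, where Thrb was higher. Fold enrichment there was 12.3 and 11.1 in AAV-GFP replicates 1 and 2 and 8.21 and 9.37 in AAV-Cre replicates 1 and 2. These peaks stood at list percentiles 6.12, 9.63, 21.3 and 14.4. List percentiles show no change between the groups, because the lists differ in length. Peaks were therefore ranked again among the 14634 regions that all 4 libraries share. There the Fkbp5 start stood at percentiles 23.4 and 22.2 in AAV-GFP and 33.1 and 25.8 in AAV-Cre. The groups did not overlap, but the shift of 6.67 points is below the SD of shifts over all shared regions, 16.4, and 62.1% of these moved as far. The authors' deposited group lists list it with folds of 13.3 (control) and 10.2 (AAV-Cre).

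Fkbp5 had 10 further regions, 3 of them shared by all 4 libraries. One more lay in the start window, at 28485627 to 28485822, in AAV-GFP replicate 2 only (4.25). A region inside the gene at 28407444 to 28407696 had folds of 10.9 and 8.03 in AAV-GFP and 8.43 in AAV-Cre replicate 2, and no peak in AAV-Cre replicate 1. Its summits in the 3 libraries fell within 2 bp of each other. The intragenic region at 28420235 to 28420639 was shared, with folds of 4.56, 4.80, 5.13 and 4.45 in the order AAV-GFP replicates 1 and 2 and AAV-Cre replicates 1 and 2. Upstream of the start, 26473 bp outside the gene, the region at 28512622 to 28513064 had folds of 4.18, 4.96, 4.99 and 6.23, and its mean percentile among shared regions was 95.4 in AAV-GFP and 75.2 in AAV-Cre, a stronger rank in both AAV-Cre libraries. As large a shift was seen in 20.4% of shared regions. A region 36470 bp outside the gene, at 28522619 to 28523438, had folds of 6.71, 5.58, 3.88 and 7.81. Here the AAV-Cre libraries lay on either side of the controls, at percentiles 91.5 and 21.1 against 46.9 and 60.6.

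Nr3c2 encodes the mineralocorticoid receptor, which binds corticosterone with higher affinity than the glucocorticoid receptor does. On chromosome 8, from 76898083 to 77245012, it had 7 regions over a gene of 347 kb. The start region at 76901782 to 76902548 had folds of 11.0 and 8.95 in AAV-GFP and 7.65 and 6.84 in AAV-Cre. These stood at list percentiles of 6.09, 12.3, 17.0 and 23.6. Among shared regions the percentiles were 23.3 and 28.2 in AAV-GFP and 26.7 and 40.9 in AAV-Cre, so that the groups overlapped, and 56.6% of shared regions shifted by as much as its 8.05 points. A weaker shared region lay 3178 bp upstream of that start and inside the annotated gene, at 76898993 to 76899310, with folds of 5.79, 4.32, 4.36 and 4.06. A region 11513 bp past the upper end, inside the neighbouring gene Arhgap10, was open in AAV-GFP (7.46 and 3.93) and had no AAV-Cre peak. Between them the body of the gene held a group of 3 adjacent regions, each seen in a single AAV-GFP library.

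Thrb encodes thyroid hormone receptor beta, whose beta-2 form is the receptor most tied to feedback on the hypothalamus and pituitary. It lies on chromosome 14 from 17659225 to 18040097. The distal start, whose sequence is given above, held a region of 1160 bp at 17660251 to 17661410, the widest of the 69. It had folds of 10.7 and 8.20 in AAV-GFP and 9.35 and 6.28 in AAV-Cre. Among shared regions the groups interleaved, at percentiles of 35.1 and 42.4 against 14 and 53.1. The start of LOC115488350 lies under the same region, so the peak cannot be given to Thrb alone. The internal start at 17981644 had no peak in any library. The other 9 Thrb regions were in no case shared by all 4 libraries, and 7 of them were seen in 1 library. The region at 17927591 to 17927862 had folds of 6.99 and 5.29 in AAV-GFP and 5.39 in AAV-Cre replicate 1. The region at 17967367 to 17967707, 14107 bp upstream of the internal start, had folds of 8.86 in AAV-GFP replicate 1 and 4.31 and 6.63 in the AAV-Cre libraries. It was the one region near the 8 genes with a peak in the authors' deposited AAV-Cre group list (6.38) and none in the control group list. AAV-GFP replicate 2 lacked a peak there, so its absence from the control list adds no separate support.

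Thra encodes thyroid hormone receptor alpha, the more widely expressed of the pair in brain. It lies in a dense stretch of chromosome 11, from 98740776 to 98769006, and its window held 18 regions, 14 per 100 kb of window against 0.873 to 5.87 at the other 7 genes. Few of them can be tied to Thra. The starts of other genes account for 5 regions, at Csf3, Med24, Nr1d1, Msl1 and Casc3. The 7 regions inside Thra or at its lower end were weak, with folds of 3.17 to 5.07, and 6 of the 7 were seen in 1 library. The exception, at 98750648 to 98751294, was open in both AAV-GFP libraries (3.30 and 3.64) but in no AAV-Cre library. The region that ranked best in every library but AAV-GFP replicate 1 lay inside Nr1d1, which encodes the clock repressor REV-ERB alpha and overlaps the upper end of Thra in the opposite direction. At 98773665 to 98774270 it had folds of 6.86 and 8.74 in AAV-GFP and 6.74 and 8.11 in AAV-Cre, at list percentiles of 11.4, 7.94, 16.9 and 6.65. The start region of Casc3, at 98809518 to 98810350, had 9.43, 6.80, 7.03 and 6.36 in the same order. Inside Msl1, 27571 bp from Thra, a weak region at 98796577 to 98796998 was seen in AAV-GFP alone (3.26 and 3.32).

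Of all 15 shared regions, the one with the largest shift in rank lay 14254 bp outside Thra, at 98783260 to 98783789, between Nr1d1 and Msl1. Its folds were 6.17 and 4.02 in AAV-GFP and 5.48 and 7.33 in AAV-Cre. Among shared regions it stood at percentiles of 63.6 and 94.5 in AAV-GFP and 61.4 and 26.5 in AAV-Cre, a mean shift of -35.1 points toward stronger rank that 4.13% of shared regions matched. The groups did not overlap, but the nearest libraries of each, at 63.6 and 61.4, lay much closer than the libraries within either group.

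Nr3c1 encodes the glucocorticoid receptor, the main sensor of high corticosterone, and is transcribed from several alternative first exons. Its gene, on chromosome 18 from 39410545 to 39519421, had 10 regions, and no region was shared by all 4 libraries. A cluster of 4 regions lay inside the gene, 27946 to 29764 bp from its upper end. Whether any of them lies at a first exon was not checked. The strongest, at 39489244 to 39490069, had folds of 6.71 and 6.37 in AAV-GFP and 4.34 in AAV-Cre replicate 1, with no peak in AAV-Cre replicate 2. Its list percentiles were 19.7, 30 and 73.7. The outermost, at 39491282 to 39491668, had folds of 4.73 and 3.88 in AAV-GFP and 5.04 in AAV-Cre replicate 2, with no peak in AAV-Cre replicate 1. So each AAV-Cre library had 1 peak in the cluster, at opposite ends of it, while AAV-GFP replicates 1 and 2 had peaks at both ends.

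Outside Nr3c1, 2 regions were open in AAV-GFP alone. They lay 19255 bp below the gene at 39391053 to 39391290 (folds of 8.86 and 3.67) and 7327 bp above it at 39526748 to 39527108 (9.50 and 4.76). In both, AAV-GFP replicate 1 ranked within the first 25.5% of its list and AAV-GFP replicate 2 at percentiles 98.8 and 81.1. A region 38674 bp below the gene, inside Arhgap26, had folds of 6.14 and 5.63 in AAV-GFP and 3.91 in AAV-Cre replicate 1. In total the AAV-GFP libraries had peaks in 8 and 7 of the 10 Nr3c1 regions and the AAV-Cre libraries in 2 and 2. Over all regions the shares were 83.5% and 49.8% in AAV-GFP and 33.7% and 38.6% in AAV-Cre. The groups thus differed in this direction over all regions too, and the Nr3c1 counts were not tested against these shares. The authors' deposited control group list had peaks over 6 of them and the AAV-Cre group list over 0. No Nr3c1 region had peaks in both AAV-Cre libraries. The AAV-Cre group list left out regions with a peak in only 1 of them near all the genes, so its count adds no separate support.

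**Figure D3:**
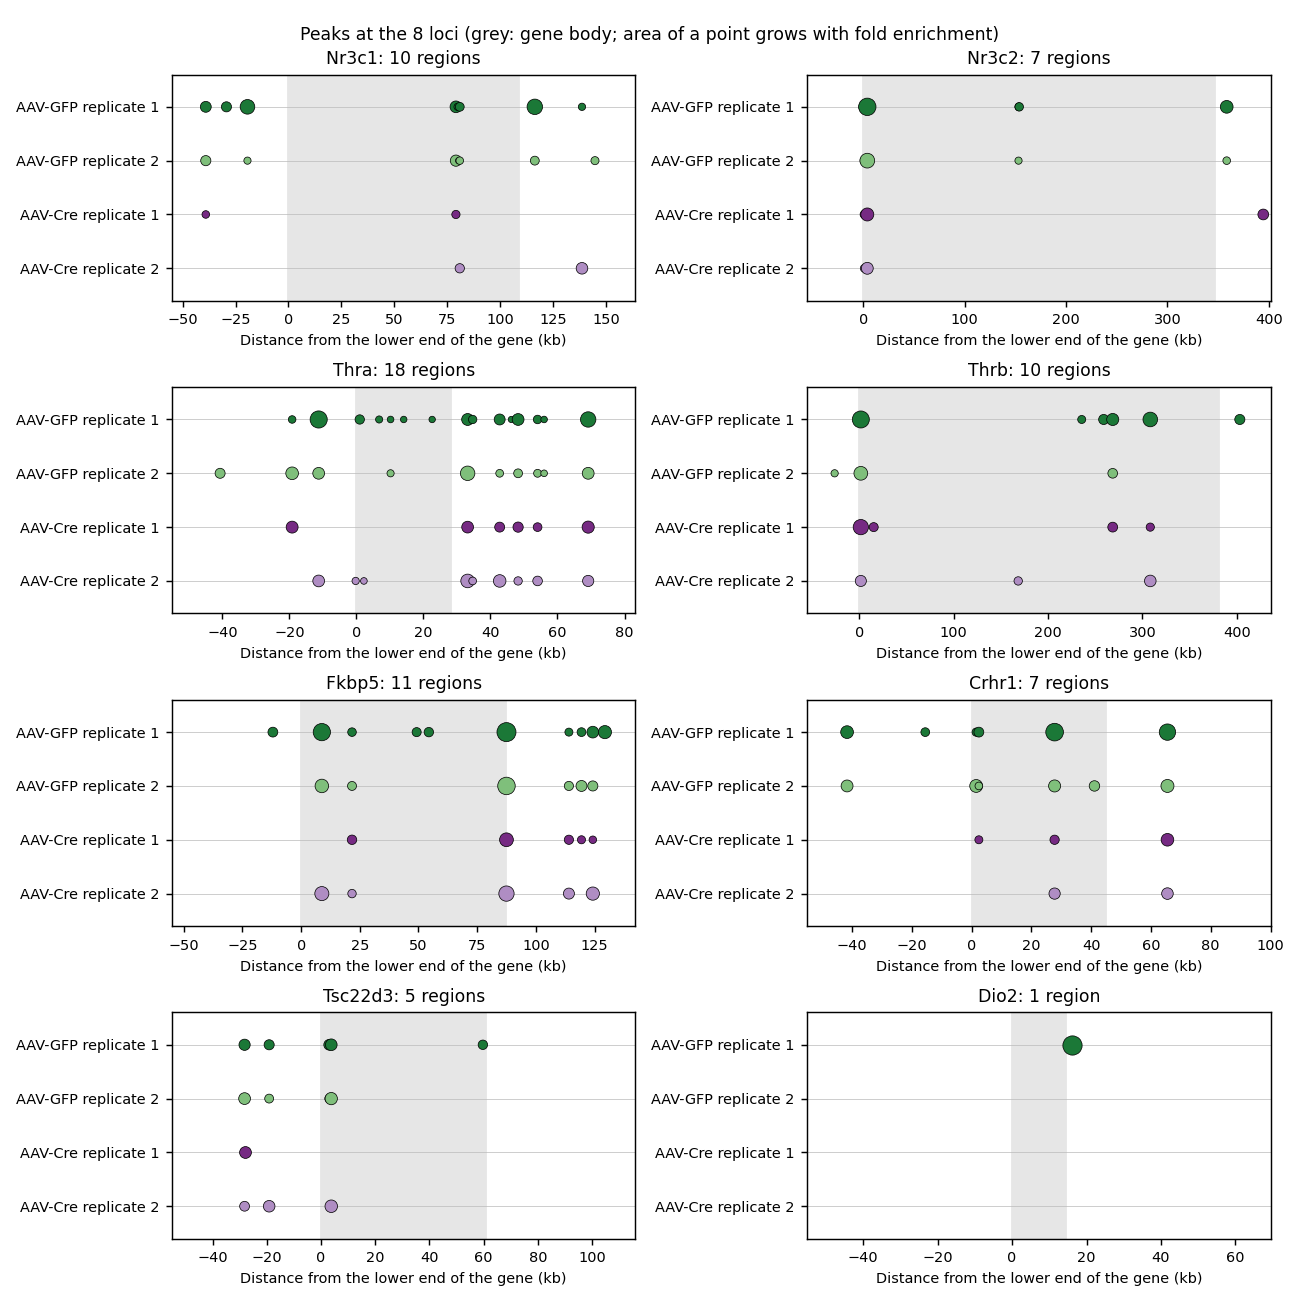
Positions of all 69 regions along the 8 loci, as distance in kb from the lower end of each gene (horizontal axis), with 1 row per library and a point where that library has a peak. Grey marks the gene body, and point area grows with fold enrichment; Nr3c1 has no position with a point in all 4 rows, Thra has 5 and Dio2 has a single point in all.

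Crhr1 encodes the main receptor for corticotropin-releasing hormone, on chromosome 11 from 104130463 to 104175523. Its start region at 104132649 to 104133066 had folds of 5.41 and 3.96 in AAV-GFP and 4.17 in AAV-Cre replicate 1. A second region, 827 bp upstream of the start at 104131822 to 104132086, was seen in AAV-GFP alone (4.32 and 7.55, with summits 2 bp apart). An intragenic region at 104157976 to 104158431 was shared, with folds of 11.2 and 6.96 in AAV-GFP and 5.02 and 6.39 in AAV-Cre. Its mean percentile among shared regions went from 51.3 in AAV-GFP to 75 in AAV-Cre, a shift of 23.7 points toward weaker rank that 14.5% of shared regions matched. The groups there were parted by less than 1 point, 64.1 in AAV-GFP replicate 2 against 65.0 in AAV-Cre replicate 2. A region 20321 bp past the gene, at 104195844 to 104196100, was also shared (10.2, 7.66, 7.38 and 6.63). A region 41594 bp below the gene, at 104088609 to 104088869, had folds of 7.46 and 6.86 in AAV-GFP and no peak in AAV-Cre. That region was the one of its kind near the 8 genes that still had peaks in both AAV-GFP libraries and no AAV-Cre library when lists were cut to equal length, and also at a −log10 q of at least 5.

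Tsc22d3 encodes GILZ, a leucine zipper protein induced by glucocorticoids that carries part of their anti-inflammatory action. The gene is on chromosome X, from 140539528 to 140600522, and is transcribed toward its lower end. The lowest of its 3 annotated starts, at 140542668, lay in a region at 140542214 to 140542804 seen in AAV-GFP alone (5.96 and 4.63). The next region, 620 bp upstream at 140543058 to 140543517, had folds of 6.70 and 7.13 in AAV-GFP and 7.30 in AAV-Cre replicate 2, and no peak in AAV-Cre replicate 1. The start window as a whole was therefore open in 3 libraries. Farther out, 28039 bp below the gene, a region at 140511100 to 140511489 was shared, with folds of 6.36, 6.76, 6.78 and 5.40. A region 18988 bp below the gene, at 140520199 to 140520540, had folds of 5.59 and 4.76 in AAV-GFP and 6.63 in AAV-Cre replicate 2.

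Dio2 encodes type 2 deiodinase, which makes the active hormone T3 from T4 and in the hypothalamus is known mainly from tanycytes and astrocytes. On chromosome 12, from 90724552 to 90739038, it had 1 region in its whole window. That region, 1549 bp outside the gene on the side of its start, at 90740587 to 90740759, had a fold of 12.5 in AAV-GFP replicate 1, the highest fold of the 69 regions in any library. By rank it was not the first, at list percentile 12.7, while the starts of Nr3c2 and Fkbp5 stood at 6.09 and 6.12 in that library. The other 3 libraries had no peak in the Dio2 region or anywhere within 50 kb of Dio2. The astrocyte markers Aqp4 and Gfap had no start peak in any library either, while Aldh1l1 had one in 3 (4.19, 5.29 and 4.42) and Slc1a3 in 1 (4.19).

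Counted over the 8 genes, the shares of regions that did and did not differ between the groups were close to those of all regions. Of the 69 regions, 8 (11.6%) had a peak in each AAV-GFP library and in no AAV-Cre library, against 11.5% of all 67299. They were spread over Nr3c1, Thra and Crhr1, with 2 each, and Nr3c2 and Tsc22d3, with 1 each. The converse pattern was seen at 0 regions, against 1.18%, and regions with a peak in all 4 libraries numbered 15 (21.7%), against 21.7%. The counts rest on each library in turn. Regions found in every AAV-GFP library used and in no AAV-Cre library used numbered 16 without AAV-GFP replicate 1, 31 without AAV-GFP replicate 2, 14 without AAV-Cre replicate 1 and 13 without AAV-Cre replicate 2. For the converse pattern the numbers were 1, 0, 3 and 2 in the same order. Without AAV-GFP replicate 2, regions seen in AAV-GFP replicate 1 alone also count, and those are 34.9% of all regions. Shares over all regions are not given for these settings, so the numbers are not read as a result about the 8 genes. Since no sort of infected cells is stated, fewer nuclei with an open site and a less open site in each nucleus cannot be told apart. List length also parts the groups. In lists cut to equal length, 1 region was open in AAV-GFP alone (2.33% of 43, against 5.41% of all regions) and 1 in AAV-Cre alone (against 4.6%).

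Peaks were seen more often in the longer lists. AAV-GFP replicate 1 had a peak in 57 of the 69 regions (82.6%), AAV-GFP replicate 2 in 41 (59.4%), AAV-Cre replicate 1 in 24 (34.8%) and AAV-Cre replicate 2 in 26 (37.7%). Over all regions the shares were 83.5%, 49.8%, 33.7% and 38.6%. The mean was 49 ± 11.3 regions (SD, n = 2) in AAV-GFP and 25 ± 1.41 (SD, n = 2) in AAV-Cre, with an exact permutation p of 0.333, the smallest possible here. In 20 regions AAV-GFP replicate 1 had the only peak, 29.0% against 34.9% of all regions. Another 11 regions (15.9%, against 9.23% of all regions) had peaks in both AAV-GFP libraries and in 1 AAV-Cre library. The converse held for 1 region (1.45%, against 1.69%). The authors' deposited group lists, called on a pool, held 35 control and 16 AAV-Cre peaks near these genes, of which 15 of the 35 (42.9%) overlapped an AAV-Cre peak and 15 of the 16 (93.8%) a control peak. Over the whole lists these shares were 51.3% and 88.5%. All 15 shared regions were in both lists, and the 8 regions open in AAV-GFP alone were in the control list only. The 11 regions with 1 AAV-Cre library were also in the control list only. Of 32 regions seen in 1 library, 1 was in the control list. The group lists thus largely followed presence in both libraries of a group, and they are no independent support for these patterns.

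The 15 shared regions moved in both directions in rank. The percentile rose, meaning a weaker rank after AAV-Cre, in 7 and fell in 8, with shifts from -35.1 to 23.7 points and a median of -5.18, against a median of -0.0214 over all shared regions. The groups did not overlap in 5 of the 15, against 39.4% of all shared regions. At the start regions of Nr3c2, Thrb and Fkbp5 the mean percentile was 27.2 and 30.9 in AAV-GFP and 24.6 and 39.9 in AAV-Cre, a difference of 3.18 points, with a pooled SD within groups of 7.86. Summits in the shared regions lay between 50 and 517 bp apart across the 4 libraries, with a median of 105 bp.

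**Figure D4:**
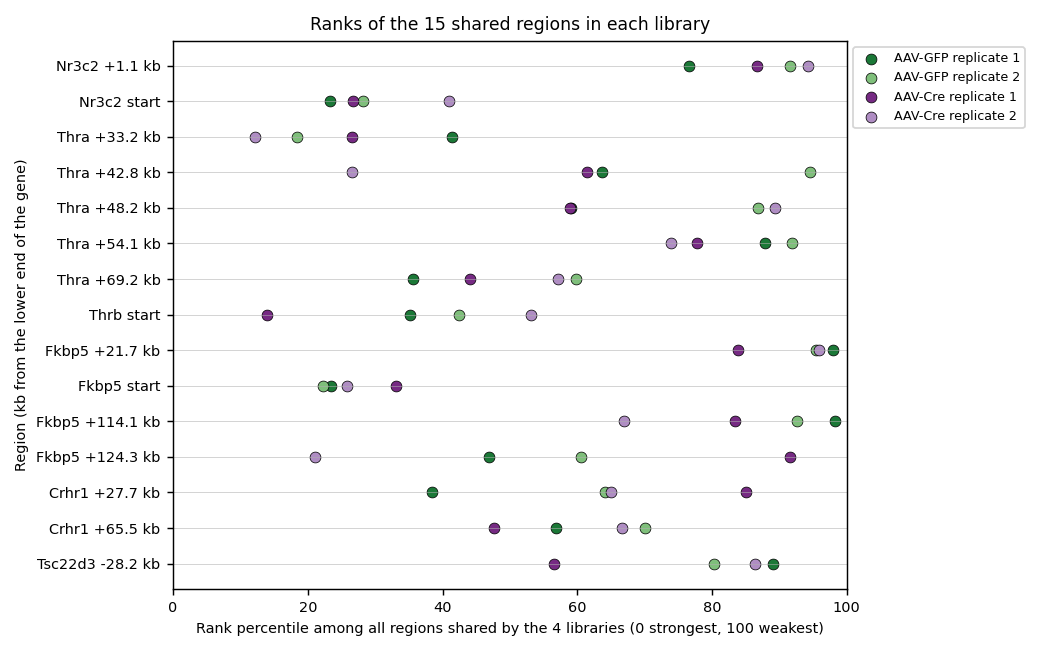
Rank percentile of each of the 15 shared regions (rows) among all regions shared by the 4 libraries, from 0 (strongest) to 100 (weakest) on the horizontal axis, with 1 point per library. The start regions of Nr3c2, Thrb and Fkbp5 lie at 14 to 53.1, and the region 42.8 kb from the lower end of Thra has the largest shift between the groups.

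Other genes of the same pathways were read by the same start rule. Those without an oriented start were read at both gene ends, so a peak there may not mark the start. Hspa8, Ncoa2, Ncoa3, Hsd11b2, Hr, Crh and Trhr are among them. Of 42 genes in 8 lists, 24 had a start peak in all 4 libraries, 10 in 1 to 3 and 8 in none, and 0 had one in both libraries of a single group alone. Of all protein-coding genes, 42.9% had a start peak in all 4 libraries and 40.9% in none, and no list was tested against that share. Chaperones of the steroid receptors were open throughout, 6 of 6 in all 4 libraries. Stip1, which links HSP70 to HSP90, had folds of 12.1, 13.1, 11.9 and 11.2, Hspa8 9.33, 11.7, 6.56 and 8.14, and Ptges3, the p23 co-chaperone, 7.20, 6.66, 6.56 and 7.16. Of the coregulators 6 of 7 were open in all 4, led by the corepressor Ncor1 (8.54, 8.87, 6.32 and 6.53), Med1 (9.22, 7.41, 5.88 and 6.45) and the coactivator Ncoa3 (8.19, 6.33, 5.06 and 6.09). Ncoa2 lacked AAV-Cre replicate 1. Of the RXR partners of the thyroid receptors, Rxrg (12.5, 7.13, 5.13 and 6.56) and Rxrb (5.46, 4.86, 3.75 and 3.69) were open in all 4, and Rxra in AAV-GFP replicate 1 only (5.19).

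Glucocorticoid-induced genes had a start peak in all 4 libraries in 8 of 9 cases, with Zbtb16 read at both gene ends. Ddit4, an inhibitor of mTORC1 signalling, had folds of 8.85, 10, 7.51 and 8.98. Sgk1, a kinase that responds to corticosteroids, had 14, 10.1, 9.65 and 9.94, and Klf9, a transcription factor induced by both hormones, 9.04, 9.85, 8.87 and 7.33. The metallothionein gene Mt2 was open in AAV-GFP replicate 2 only (4.69). Of the enzymes that convert corticosterone, Hsd11b2 was open in all 4 libraries (4.76, 4.41, 4.20 and 5.96) and Hsd11b1 in AAV-GFP replicate 1 alone (5.29).

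Genes of thyroid hormone supply and of the axes themselves were read in the same way. Among 6 genes of transport and metabolism, the transporter Slc16a10 alone had a start peak in all 4 libraries (13.5 and 12.2 in AAV-GFP, 5.88 and 6.68 in AAV-Cre). Slco1c1, another transporter gene, had one in AAV-GFP replicate 1 alone (5.59). Dio1, Dio3 and Crym had none. Among thyroid hormone targets, Klf9 was open in all 4, Thrsp lacked AAV-Cre replicate 2 (5.36, 4.12 and 4.18 in the others) and the corepressor gene Hr was open in AAV-GFP replicate 2 only (5.28). Of 7 genes of the axes none was open in all 4. Crh was open in AAV-GFP replicate 1 (10.3) and in AAV-Cre replicate 2 (4.42), Trhr in AAV-GFP replicate 1 alone (5.59), and Trh, Avp, Crhr2, Crhbp and Ucn had none.

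**Figure D5:**
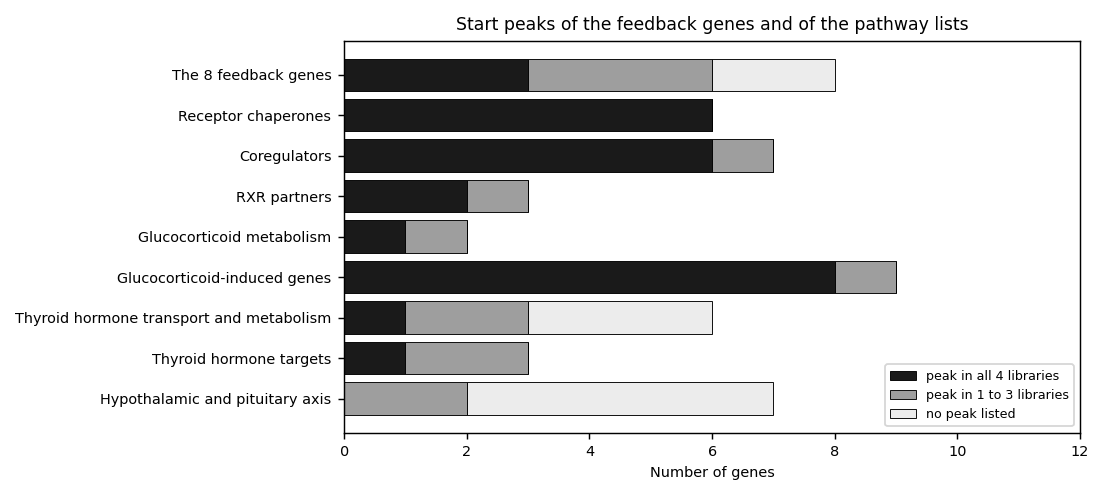
Number of genes (horizontal axis) with a start peak in all 4 libraries, in 1 to 3 libraries or in none, for the 8 feedback genes and 8 pathway lists. Chaperones, coregulators and glucocorticoid-induced genes are mostly open in all 4 libraries, while the hypothalamic and pituitary axis list has 0 of 7 such genes.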

How the data were processed

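ATAC-seq was done on the PVH of 2 AAV-GFP and 2 AAV-Cre libraries. The submitters' processing notes name MACS2, Bowtie2, Trim Galore and FastQC, with mm10. Versions, read filters and any transposase shift are not stated there. In all, the authors deposited 6 peak lists, 1 per library and 1 per group (called on a pool, per the peak names in the files). For each peak, the authors' MACS2 calls gave a fold enrichment ratio over local background as deposited, not scaled between libraries. The −log10 p and −log10 q values were computed by MACS2 in the authors' calling, as deposited. The deposited score, made by the authors' caller, equals −log10 q times 10 without its decimals. They hold no counts, so depth is unknown.

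Peaks sharing at least 1 bp were merged across the 4 libraries with pandas 2.3.3 in Python 3.11.15. Genes, starts and sequences came from RefSeq tables of GRCm38.p6, the assembly of mm10. Of 21887 protein-coding genes, those without an oriented start, Nr3c1 and Thra among them, were read at both ends. Merging was tested on simulated lists. No test was run per region. The groups were compared by exact two-sided permutation of the libraries (SciPy 1.17.1). The members, gene lists and motifs were chosen with earlier results of these data known. Named regions are those at a start, those open in both libraries of 1 group alone, and up to 3 of the strongest shared by all 4, and other regions were added after their values were seen. Pathway genes named are the strongest 3 of a list and those with a start peak in 1 to 3 libraries, except 1 gene that is not reported here. Alternatives were lists of equal length, a −log10 q of at least 5, stricter overlap, other windows, the group lists, leaving out each library and a replicate block.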

Additional observations from a re-analysis of the deposited data

How the results depend on the processing

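At the 8 genes, the count of 8 regions open in AAV-GFP alone became 1 in lists cut to the 23384 strongest peaks, 5 where −log10 q reached 5, 4 within 10 kb of the genes (start window 2500 bp) and 20 in the authors' group lists. With 1 library left out they were 13 to 31. Of these alternatives, only the equal-length and q-limit counts have shares over all regions, given below. The count of 0 regions open in AAV-Cre alone became 1 at equal length and 1 in group lists, and 0 to 3 when 1 library was left out. Of the original 8, the same 1 kept the pattern at equal length and under the q limit, so 4 of the 5 under the q limit are other regions. The count of 15 shared regions became 7 under the q limit, 7 within 10 kb, and 15 to 21 on leaving out 1 library. The equal-length lists kept 40.5% of the peaks of AAV-GFP replicate 1 and 68.6% of AAV-GFP replicate 2, and in 7 of the 8 regions at least 1 AAV-GFP peak fell below that cut. A narrower window holds fewer regions by construction, and a pattern over 3 libraries asks for less than one over 4. For the other changes the cause was not tested. Shares at the 8 genes lay below those of all regions in the stricter lists: open in AAV-GFP alone 2.33% against 5.41% at equal length and 10.9% against 14.2% under the q limit, shared 25.6% against 31.3% and 15.2% against 24.3%. Genes with a start peak in all 4 libraries numbered 3 to 4 without a library, and 3 in every other alternative. The mean shift of start regions, 3.18 percentile points, came to 3.17 in lists of equal length, 4.07 under the q limit and -2.65 to 4.99 on leaving out 1 library. Without AAV-Cre replicate 1 or 2 it was -0.23 or -2.65, over 4 start regions. The other values rest on 3, so these sets differ.

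With the replicate block, in which same-numbered libraries are paired, the counts were 8, 0, 15 and 3 and the shift 3.18, the same by construction. AAV-GFP replicate 1 shared 84.1% of the smaller set of regions with AAV-Cre replicate 1 and 82.5% with AAV-Cre replicate 2, and AAV-GFP replicate 2 shared 77% and 73.8%, and replicate numbers were therefore not taken to pair libraries.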

Other observations

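Many peaks in these lists carry exactly the same fold and −log10 p as others of their list. Of the 62 peaks of AAV-GFP replicate 1 near the 8 genes, 12 shared both values with at least 20 peaks in that list, and in the other libraries 6 of 42, 4 of 25 and 7 of 26 did so. Over the whole lists the shares were 32.1%, 21%, 22.9% and 24.2%. At Thrb, the regions at 17918076 and 18062226 each had a fold of 5.59 and a −log10 q of 5.68 in AAV-GFP replicate 1, as did the region at 140520199 below Tsc22d3. Stronger peaks of that library also had equal values. The regions at 39391053 (Nr3c1) and 17967367 (Thrb) both had 8.86 at list percentile 25.5. Those at 77256525 (Nr3c2) and 104088609 (Crhr1) both had 7.46 at list percentile 35.1.

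Of the start regions shared by all 4 libraries, that of Nr3c2 had the largest shift in rank. The protein-coding starts most like it among 9299, by the largest difference in percentile over the 4 libraries, were Ndufb11 and Rbm10, which share 1 region (1.85 points), and Ctdnep1 (3.41 points). At the edge of the 50 kb window, the last region inside lay 47601 bp outside Nr3c2 and was seen in AAV-Cre replicate 1 only (6.04). The first outside lay 50510 bp from Crhr1 and was seen in AAV-GFP replicate 1 only (4.59).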
